A study of Homo sapiens with 6 samples.

Results

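The MCM proteins were followed on the HG-U133A microarray as every probe set whose annotation names a single gene and whose gene is MCM2, MCM3, MCM4, MCM5, MCM6, MCM7, MCM10, MCMBP or MCM3AP. This gave 18 probe sets of 9 genes, out of 22283 probe sets and 11963 genes with a probe set of their own. Of these, 11 probe sets belong to the 6 helicase subunits MCM2 to MCM7, and 7 belong to the partners MCM10 (1), MCMBP (1) and MCM3AP (5). HL60, an established human promyelocytic leukemia cell line, was given 1 μM tretinoin (all-trans retinoic acid) dissolved in dimethyl sulfoxide (DMSO) on 3 arrays, or DMSO alone on 3 arrays. Both conditions lasted 5 days and held the same final DMSO concentration of 0.1%, so the DMSO arrays stand for vehicle and not for untouched cells. The arrays of each condition carried the same pooled product of several labeling reactions, so that p-values describe how much hybridizations of a single pool per condition vary and say nothing of the spread between cultures.

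MCM2 to MCM7 form the ring-shaped helicase that unwinds DNA ahead of the replication fork. The ring is loaded onto origins in G1 by the origin recognition complex, CDC6 and CDT1, and becomes active in S phase once CDC45 and the GINS complex join it. MCM10 helps that activation, and MCMBP binds MCM subunits outside chromatin. MCM3AP, also called GANP, carries the scaffold of the TREX-2 complex, which links transcription to mRNA export, and its name comes from its binding to MCM3. In proliferating cells many of these genes are transcribed under the control of E2F factors, and tretinoin is known to make HL60 cells leave the cell cycle as they differentiate toward granulocytes.

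The promoters of the members are described first. Whether their letters have a part in any change was not tested. RefSeq promoter windows (GRCh38.p14, 250 bases before and 50 bases from the annotated start) were at hand for 7 of the 9 genes, MCM4 and MCM5 being the exceptions. They were searched on both strands for the E2F-type letters TTTCCCGC, TTTCGCGC, TTTGCCGC and TTTGGCGC, for the E-box CACGTG and for CCAAT. The part from 200 bases before the start to 20 bases into the transcript is printed 5′ to 3′ along the gene, with E2F-type matches in capitals. These are chr3:127598211-127598430 (+ strand) for MCM2, chr6:52284723-52284942 (− strand) for MCM3, chr2:135876424-135876643 (− strand) for MCM6 and chr7:100101378-100101597 (− strand) for MCM7.
MCM2: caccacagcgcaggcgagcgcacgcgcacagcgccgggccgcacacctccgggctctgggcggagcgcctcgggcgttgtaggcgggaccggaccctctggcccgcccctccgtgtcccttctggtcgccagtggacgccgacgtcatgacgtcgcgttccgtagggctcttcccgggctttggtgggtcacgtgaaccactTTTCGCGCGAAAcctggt
MCM3: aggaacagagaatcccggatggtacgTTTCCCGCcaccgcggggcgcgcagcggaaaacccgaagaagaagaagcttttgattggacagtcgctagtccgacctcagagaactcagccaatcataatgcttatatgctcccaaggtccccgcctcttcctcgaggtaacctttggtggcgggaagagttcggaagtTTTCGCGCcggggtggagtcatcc
MCM6: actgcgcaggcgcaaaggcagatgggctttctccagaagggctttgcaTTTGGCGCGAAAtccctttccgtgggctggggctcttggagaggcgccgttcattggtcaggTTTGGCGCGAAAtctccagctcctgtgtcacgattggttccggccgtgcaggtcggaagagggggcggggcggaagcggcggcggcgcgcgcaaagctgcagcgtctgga
MCM7: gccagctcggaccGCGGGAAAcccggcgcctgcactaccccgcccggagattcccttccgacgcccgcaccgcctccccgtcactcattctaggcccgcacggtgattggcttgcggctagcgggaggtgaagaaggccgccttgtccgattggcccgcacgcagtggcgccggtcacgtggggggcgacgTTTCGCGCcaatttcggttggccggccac

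All 4 of these promoters held E2F-type letters. MCM2 had 2 overlapping matches on opposite strands just inside the transcript, between positions 3 and 14. MCM3 had 2, at −174 to −167 and across the start at −4 to 4. MCM6 had 4, as 2 overlapping pairs at −152 to −141 and −90 to −79. MCM7 has 3 annotated windows, and only the one farthest upstream held matches, at −187 to −180 and −9 to −2. Among the partners, the windows of MCM10 and MCM3AP held none, and 1 of the 2 MCMBP windows held 1, at −9 to −2. Of all 27305 genes with a promoter in the table, 3.99% held at least 1 such match, as did 6.08% of the 9563 that have a probe set of their own on the array. The E-box was found once each in MCM2 and MCM7, and in 12.0% of the genes on the array. CCAAT was found in MCM3, MCM6, MCM7, MCM10 and MCM3AP, and in 44.2% of the genes on the array. A match is a description of letters and not of a bound site.

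**Figure D1:**
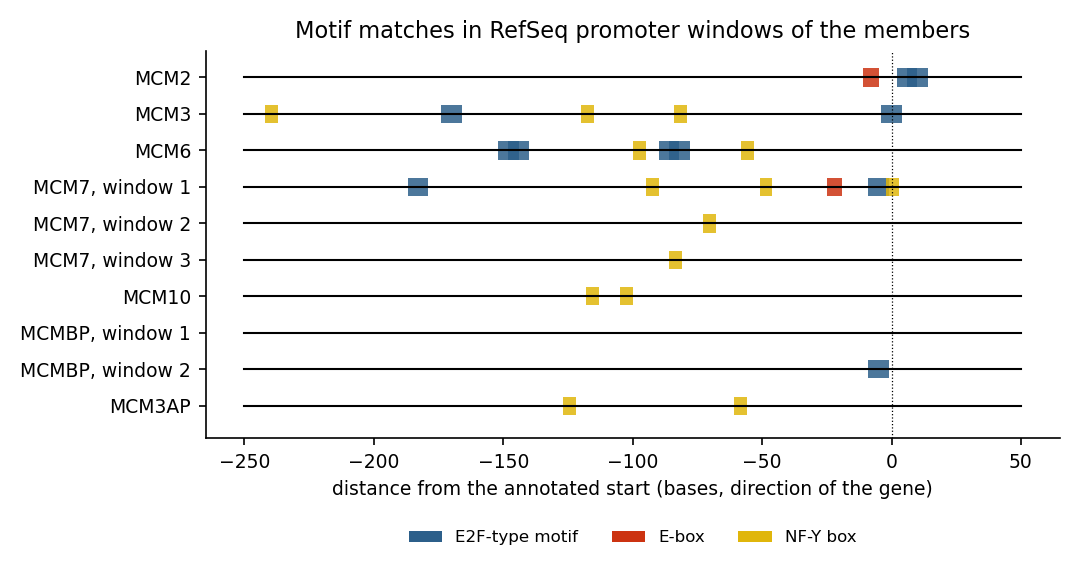
Motif matches in each RefSeq promoter window of the members, plotted by distance in bases from the annotated start along the gene. Blue marks E2F-type letters, which lie in MCM2, MCM3, MCM6, 1 of 3 MCM7 windows and 1 of 2 MCMBP windows, red marks the E-box and yellow marks the NF-Y box.

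Signals below are linear MAS5 values, scaled so that each array has the mean of the first DMSO array and set to 20 where they fell below 20. A probe set was tested with limma if it exceeded 20 on at least 3 arrays, and was called at a Benjamini-Hochberg adjusted p under 0.05 over all 13374 tested probe sets together with a change of at least 1.5-fold. Each fold is the ratio of the condition means, written as "at least" where an array of the lower condition is at the floor of 20, and each log2 change is the limma estimate with its standard error. Scaling factors ran from 0.820 to 1.36, and 54.9% to 60.1% of probe sets exceeded 20 on each array. Log2 signals of all probe sets correlated at 0.968 to 0.981 between arrays of a condition and at 0.899 to 0.905 between conditions. The ratio of 3′ to 5′ control signal for ACTB, which reflects how intact the RNA and its labeling were, was 1.14 to 1.17 on the tretinoin arrays and 1.38 to 1.42 on the DMSO arrays. The same ratio for GAPDH was 1.15 to 1.19 on the tretinoin arrays and 1.06 to 1.17 on the DMSO arrays. The part of either in the results was not tested. In such bulk RNA, fewer cells of a kind and less RNA per cell cannot be told apart.

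MCM2 to MCM7 all fell after tretinoin. All 11 of their probe sets were called lower, with log2 changes from −2.69 to −1.37 and a median of −2.36, against a median of −0.03 over all tested probe sets. No member probe set was called higher by limma, and 0 were higher at an unadjusted p under 0.05. Over the whole array 13.8% of tested probe sets (1850) were called lower and 13.6% (1824) higher, and without scaling the split was 2312 lower and 1142 higher. Of the 18 member probe sets 16 were tested, of which 12 were lower (the 11 above and MCM10) and 4 did not pass. The 3 tretinoin arrays all lay below the 3 DMSO arrays for 13 of the 16, against 24.3% of all tested probe sets. Both counts include MCM10 220651_s_at and MCM5 201755_at, which were at the floor on all 3 tretinoin arrays. They passed the filter through the DMSO arrays alone, so no other direction was open to them. One probe set each of MCM2, MCM4 and MCM6 was picked by the study for its set of 90 transcripts, from these same arrays and by their difference, so these 3 are not independent evidence of direction. The other 8 probe sets of MCM2 to MCM7, 201755_at among them, were also all lower, with a median of −2.06.

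**Figure D2:**
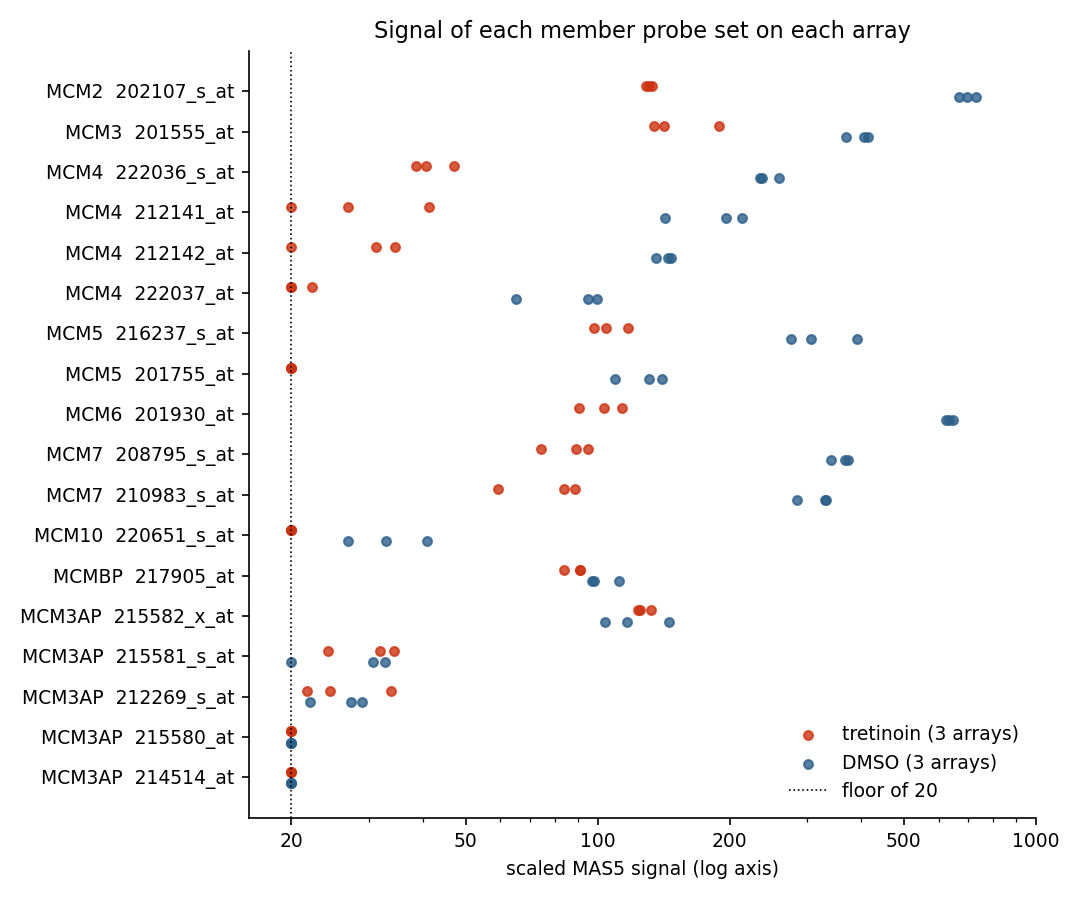
Scaled signal (log axis) of each of the 18 member probe sets, with the 3 tretinoin arrays in red above the 3 DMSO arrays in blue on each row, and the floor of 20 as a dotted line. The conditions lie apart in every row from MCM2 to MCMBP, narrowly for MCMBP, and overlap in the MCM3AP rows, 2 of which sit at the floor on all 6 arrays.

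Of the subunits with a single probe set, MCM6 (201930_at) fell the most. Its scaled signal was 114, 90.7 and 103 on the tretinoin arrays, against 635, 647 and 624 on the DMSO arrays. That is 6.20-fold lower, or −2.64 ± 0.133 on the log2 scale (limma adjusted p = 3.3e-05), with no tretinoin array near any DMSO array. MCM2 (202107_s_at) gave 129, 131 and 132.8 after tretinoin and 698, 667 and 730.2 in DMSO, and was 5.34-fold lower (−2.42 ± 0.115, adjusted p = 2.7e-05). The SD was 2.06 around a mean of 131 after tretinoin and 31.8 around a mean of 698 in DMSO. In the ring MCM6 lies between MCM2 and MCM4.

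MCM3 (201555_at), the neighbour of MCM5 and MCM7 in the ring, fell the least of the 6. It measured 142, 190 and 134 on the tretinoin arrays and 406.5, 370 and 414 on the DMSO arrays, a 2.56-fold difference (−1.37 ± 0.166, adjusted p = 9.6e-04). The second tretinoin array was the highest of its group, and was still below every DMSO array. Of the 13374 tested probe sets, 392 had a lower log2 change than this one, compared with 34 for MCM6 and 48 for MCM2.

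MCM4, which forms a core of the helicase with MCM6 and MCM7, has 4 probe sets, and all were lower. The brightest, 222036_s_at, read 40.6, 38.5 and 47.1 after tretinoin and 237, 235 and 259 in DMSO, 5.80-fold lower (−2.54 ± 0.134, adjusted p = 3.7e-05). The other three touched the floor on at least 1 tretinoin array and give bounds. Probe set 212141_at read 26.9, 20 (floor) and 41.2 against 197, 142 and 214 in DMSO, at least 6.28-fold lower. Probe set 212142_at read 34.4, 20 (floor) and 31.3 against 145, 147 and 136 in DMSO, at least 4.99-fold lower. Both were at the floor on the second tretinoin array, the array with the largest scaling factor. Probe set 222037_at exceeded 20 only on that array, at 22.2, against 65.1, 95.2 and 99.9 in DMSO, at least 4.18-fold lower. The adjusted p of these 3 lay between 2.9e-04 and 5.6e-04.

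MCM5, which with MCM2 forms the gate of the ring, has 2 probe sets that were both lower and that did not give the same size of change. The brighter, 216237_s_at, read 104, 98.2 and 117 after tretinoin and 276, 307 and 392 in DMSO, 3.05-fold lower (−1.60 ± 0.169, adjusted p = 5.3e-04). The other, 201755_at, was at the floor on all 3 tretinoin arrays, against 140, 110 and 131 in DMSO, so that it was at least 6.34-fold lower (−2.66 ± 0.137, adjusted p = 3.5e-05). The fitted −2.66 is set by the floor, and was −3.01 with a floor of 10 and −1.66 with a floor of 40. Set to the same value, its tretinoin arrays have no spread, so its standard error and adjusted p depend on the floor too.

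MCM7, whose 2 probe sets are both of the kind that can match several transcripts, gave nearly the same change with both. That kind, with the ending _s_at, also includes 202107_s_at (MCM2), 222036_s_at (MCM4), 216237_s_at (MCM5), 220651_s_at (MCM10), and 215581_s_at and 212269_s_at (MCM3AP). With 208795_s_at the arrays read 95.03, 89.1 and 74.2 after tretinoin and 366, 342 and 372 in DMSO, 4.18-fold lower (−2.07 ± 0.140, adjusted p = 1.0e-04). With 210983_s_at they read 59.3, 83.6 and 88.6 after tretinoin and 286, 331 and 330 in DMSO, 4.09-fold lower (−2.05 ± 0.184, adjusted p = 2.7e-04). The tretinoin array that was lowest for one probe set was not the lowest for the other.

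The partners behaved differently from one another. MCM10 (220651_s_at) was dim: it was at the floor on all 3 tretinoin arrays and read 26.9, 32.9 and 40.8 in DMSO, at least 1.68-fold lower (−0.72 ± 0.172, adjusted p = 0.017). With a floor of 10 the fitted change was −1.68, so its size depends on the floor. The tretinoin arrays, set to the same value, have no spread, so the standard error and adjusted p depend on it as well. The call on MCM10 was lost with a floor of 40, with no filter, with a minimum of 2-fold, and without the first or the third tretinoin array (adjusted p = 0.052 for each array). Without any one of the DMSO arrays MCM10 no longer exceeded 20 on 3 arrays and was not tested.

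MCMBP (217905_at) read 91.3, 83.9 and 91.2 on the tretinoin arrays and 97.0, 112 and 98.1 on the DMSO arrays. All 3 tretinoin arrays lay below all 3 DMSO arrays, but the log2 change of −0.20 (95% interval −0.50 to 0.10) did not pass (limma adjusted p = 0.277). The interval leaves out a fall as large as that of MCM3, whose own interval ran from −1.76 to −0.98.

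None of the 5 MCM3AP probe sets was called by limma, and 0 reached an unadjusted p under 0.05. The brightest, 215582_x_at, a kind of probe set that may also detect other sequences, read 124, 125 and 132 after tretinoin and 146, 104 and 117 in DMSO (0.07, 95% interval −0.30 to 0.44). Probe set 215581_s_at read 24.3, 34.4 and 31.9 after tretinoin, against 20 (floor), 32.7 and 30.8 in DMSO (0.13, interval −0.42 to 0.69). Probe set 212269_s_at read 33.7, 21.7 and 24.5 after tretinoin and 27.4, 28.9 and 22.1 in DMSO (0.01, interval −0.47 to 0.49). The sign of all 3 turned without scaling (−0.13, −0.069 and −0.082), where the median of all tested probe sets was −0.21, and relative to that median they were at 0.082, 0.15 and 0.13. The remaining 2, 215580_at and 214514_at, were at the floor on all 6 arrays and were not tested.

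**Figure D3:**
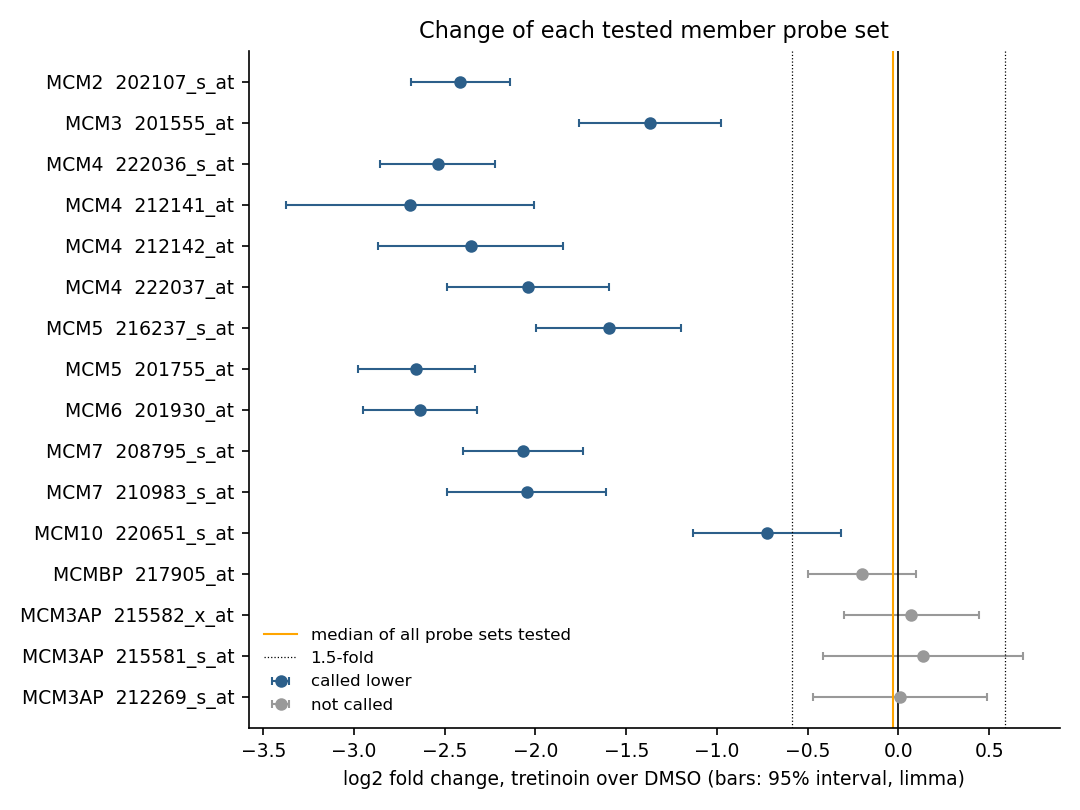
Change on the log2 scale (tretinoin over DMSO) of the 16 tested member probe sets with 95% intervals from limma. Probe sets called lower (blue) lie between −2.69 and −0.72, those not called (grey) lie between −0.20 and 0.13, and the orange line is the median of all tested probe sets, −0.03.

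The agreement of probe sets within a gene was tested directly, by fitting limma to the difference of their log2 signals on each array. Over the array, 5141 pairs of tested probe sets of 2391 genes could be compared, of which 4.55% differed in their change by at least 1.5-fold at an adjusted p under 0.05. The members gave 11 of the pairs compared, in 4 genes. Both probe sets of every pair had a change of the same sign, as they did in 3922 of all 5141 pairs. The median difference in log2 change was 0.18 for the member pairs and 0.29 for all. Pairs of MCM4 and of MCM3AP share probe sets, so the 11 are not independent. The MCM3AP changes were only 0.01 to 0.13. Their signs no longer matched without the first tretinoin array or without any one of the DMSO arrays. These values therefore do not show closer agreement among the members.

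The MCM5 pair was the only one of the 11 that differed. The fall of 201755_at exceeded that of 216237_s_at by 1.06 ± 0.221 on the log2 scale (95% interval 0.55 to 1.58, adjusted p = 0.039), a size that depends on the floor under 201755_at. Of the alternatives, the call held only with trend and robust variances and with other fold minimums. It was lost with each other scaling, with no filter, with an offset of 16, with a floor of 10 and without any one of the tretinoin arrays, where the difference lay between 0.73 and 1.41 (adjusted p = 0.051 to 0.151), and with a floor of 40, where it was 0.06. Above 20 on all 6 arrays, and without any one of the DMSO arrays, 201755_at was not tested. The MCM7 pair differed by −0.02 (interval −0.64 to 0.60, adjusted p = 0.978). The 6 MCM4 pairs differed by 0.15 to 0.65, with limma adjusted p-values from 0.298 to 0.800. The widest interval, for 212141_at and 222037_at, ran from −1.51 to 0.20. Each MCM4 pair includes a probe set that touched the floor after tretinoin, so these sizes depend on the floor too. The change of 222037_at was −2.04, but −2.52 with a floor of 10 and −1.09 with a floor of 40. The 3 MCM3AP pairs differed by 0.06 to 0.12, the widest interval running from −0.71 to 0.96, which leaves room for unequal changes.

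**Figure D4:**
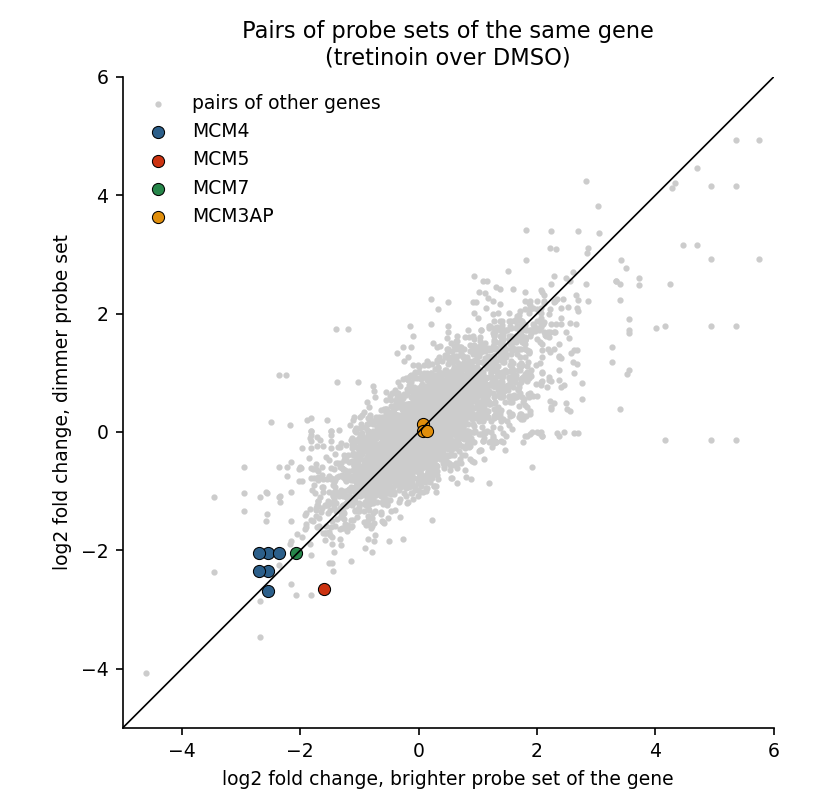
Log2 fold change (tretinoin over DMSO) of the brighter against the dimmer probe set of the same gene, for all 5141 pairs in grey and the 11 member pairs in colour, with the line of equal change. The MCM4 and MCM7 pairs lie near the line at −2.04 or below, the MCM3AP pairs lie near 0, and the MCM5 pair lies below the line by 1.06.

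By the brightest probe set of each gene the falls were ordered MCM6, MCM4, MCM2, MCM7, MCM5 and MCM3. The order depends on the probe set: by the mean of all probe sets of a gene, some of them at the floor, MCM5 (−2.13) came before MCM7 (−2.06) and MCM2 (−2.416) before MCM4 (−2.407). Neighbours in the order by the brightest probe set were compared by the difference of their log2 signals on each of the 6 arrays. The order came from these same arrays, so the direction of every step was fixed in advance and is not evidence of the order. An exact two-sided permutation test set the 3 tretinoin against the 3 DMSO arrays, and cannot go below p = 0.1. MCM6 and MCM4 (0.10 apart, exact p = 0.5), MCM4 and MCM2 (0.12 apart, exact p = 0.3) and MCM5 and MCM3 (0.23 apart, exact p = 0.6) overlapped between arrays (adjusted 0.5 to 0.6). The steps between MCM2 and MCM7 (0.35 ± 0.120) and between MCM7 and MCM5 (0.47 ± 0.223) did not overlap, each at the smallest p possible (exact p = 0.1, adjusted 0.25 over the 5 steps). Averaged over the 6 genes, the change from the DMSO mean was −2.09, −2.11 and −2.11 on the tretinoin arrays and −0.03, −0.06 and 0.09 on the DMSO arrays.

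The 5 genes whose profile over the 6 arrays was closest to the mean of MCM2 to MCM7 were sought among 8152 others by the root mean square difference of log2 values. They were the spindle checkpoint gene MAD2L1 (difference 0.063, 4.34-fold lower), the azurophil granule protease PRTN3 (0.072, at least 4.53-fold), the chromatin remodeler HELLS (0.091, at least 4.50-fold), the prion protein gene PRNP (0.095, 4.02-fold) and the ciliary transport gene IFT57 (0.103, 3.98-fold). The 6 arrays hold only 2 conditions, so that a small difference is mostly a fall of the same size. PRTN3 (mean of 20.3 after tretinoin) and HELLS (20) lay at or near the floor, so their closeness depends on the floor. After tretinoin ZHX3 (20) and ELN (21.5), named next, did so as well. Closest to MCMBP were HMGXB3, ZNF706, ZHX3, ZC3H13 and FBXO41 (0.023 to 0.048), and closest to MCM3AP were CPNE1, RNF208, FBXW4, ELN and LPAR2 (0.032 to 0.089), none of which was called.

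Most genes that load, activate and follow the helicase were lower as well, each taken by its brightest probe set. Of all 8161 genes tested in this way 14.3% were called lower and 13.5% higher, with a median log2 change of −0.04. For the 6 genes MCM2 to MCM7 the median was −2.24. Of the 9 origin licensing genes 6 were lower and none higher, with a median of −1.09. CDT1, which brings the MCM ring to origins, read 31.5 ± 3.66 after tretinoin and 121 ± 14.3 in DMSO (SD, n = 3 arrays each), 3.85-fold lower, and GMNN, which encodes the CDT1 inhibitor geminin, was 3.33-fold lower. The other licensing genes called lower were ORC1, ORC5, ORC6 and CDC6, and the 3 that did not pass, ORC2, ORC3 and ORC4, ran from −0.90 to −0.05. ORC1 exceeded 20 on only 1 tretinoin array, at 20.2, so its change depends on the floor. Over the alternatives the count of 6 ran from 4 with no filter to 7 with no scaling, and was 5 with a floor of 40.

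Of the 13 helicase activation genes 9 were tested and 8 were lower, with a median of −1.15. GINS1 read 36.4 ± 4.27 after tretinoin and 118 ± 11.0 in DMSO, 3.24-fold lower. CDC45, which completes the active helicase with GINS, was at the floor on all 3 tretinoin arrays, against 79.8, 60.5 and 55.1 in DMSO, at least 3.26-fold lower. GINS2 was also at the floor on all 3 tretinoin arrays. CDC45 and GINS2 passed the filter through the DMSO arrays alone, so no other direction was open to them. DONSON, a factor of helicase assembly, did not pass (−0.71, limma adjusted p = 0.065). The count of 8 rests on dim probe sets and was 4 with a floor of 40, 5 with no filter and 5 without the first DMSO array.

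Of the 20 genes of the fork enzymes 19 were tested and 16 were lower, with a median of −1.39. The largest falls were those of POLD2, a subunit of DNA polymerase delta (57.6 ± 11.3 after tretinoin and 219 ± 27.4 in DMSO, 3.79-fold lower), and of RFC3, a subunit of the loader of the PCNA clamp (63.1 ± 22.6 and 229 ± 6.24, 3.63-fold lower). POLA2, RPA1 and RPA2 did not pass, at −0.56 to −0.02. No gene of these 3 lists was called higher by limma, and 0 were higher at an unadjusted p under 0.05. MCM9, the only other gene with an MCM domain to be matched on the array, did not pass (−0.54, adjusted p = 0.296).

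Of the 5 TREX-2 partners of MCM3AP 2 were lower and none was called higher by limma, with 1 (ENY2) higher at an unadjusted p under 0.05. PCID2 was 2.04-fold lower (60.3 ± 10.5 after tretinoin and 123 ± 17.9 in DMSO) and the centrin gene CETN3 was 1.84-fold lower (25.3 ± 3.85 and 46.4 ± 10.1), while SEM1, CETN2 and ENY2 did not pass, with log2 changes from −0.48 to 0.48. Of the 2 called, 1 was left with a floor of 40, with no filter, with a minimum of 2-fold and without the first tretinoin array.

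**Figure D5:**
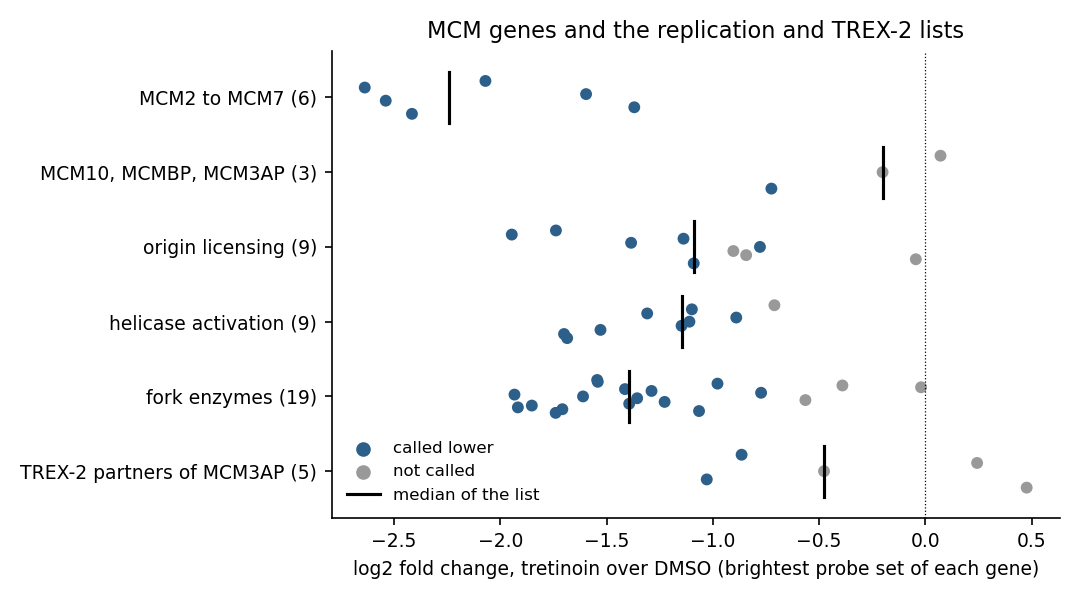
Change on the log2 scale (tretinoin over DMSO) of every gene by its brightest probe set, for MCM2 to MCM7, their partners, and the lists of origin licensing, helicase activation, fork enzymes and TREX-2 genes, with the number of tested genes in brackets and a black line at each median. The medians are −2.24 for MCM2 to MCM7, −1.09, −1.15 and −1.39 for the 3 replication lists and −0.48 for TREX-2.

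The labels were checked with marker genes. Of 7 promyelocyte markers tested 6 were lower, with summed signal of 538 to 616 on tretinoin arrays and 4326 to 4874 on DMSO arrays, of which MPO made up 104 to 149 and 2914 to 3367. The remaining one, CEBPE, read 238 ± 10.3 after tretinoin and 171 ± 5.53 in DMSO (log2 change 0.48, adjusted p = 0.019), short of 1.5-fold. Among the 6, ELANE was at the floor on all tretinoin arrays. It passed the filter through the DMSO arrays alone, so no other direction was open to it. All 4 retinoid response markers were higher, with summed signals of 2671 to 3243 on tretinoin arrays and 436 to 486 on DMSO arrays. None of the markers of other cells was called, but not all were low. COL1A1 read 89.9 ± 11.0 after tretinoin and 74.5 ± 18.7 in DMSO, and HBB read 64.0 ± 13.9 and 59.8 ± 8.40. Both have a probe set ending in _x_at, the kind that may also detect other sequences. Summed signals, in which a marker at the floor counts as 20, were 96.8 to 140 on tretinoin arrays and 101 to 125 on DMSO arrays for 4 T cell markers (1 at the floor throughout), and 60 to 88.4 and 61.8 to 91.4 for 3 B cell markers (1 at the floor). They were 72.0 to 99.2 on tretinoin arrays and 70.4 to 86.4 on DMSO arrays for 2 erythroid markers (1 at the floor), and 137 to 169 and 121 to 166 for 4 fibroblast markers (2 at the floor). The 4 epithelial markers were at the floor on all 6 arrays.

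The study also designed ligation probe pairs for its 90 transcripts, whose readout is not analysed here. Those of 2 member probe sets are shown. The gene-specific parts, which meet at the bases in capitals, mark the stretch of each transcript that was chosen, on chromosome 2 for MCM6 and on chromosome 3 for MCM2.
MCM6 upstream part: acccatgagtactcaacttG
MCM6 downstream part: Ccttgatgtctgagctttcc
MCM2 upstream part: acagttatcagctgccattG
MCM2 downstream part: Ctccctgtctgtttccccac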

How the data were processed

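Gene expression was measured on 6 Affymetrix HG-U133A arrays, 3 per condition. Per the labels, the deposited values are linear signal intensities made by the authors with MAS5 (version not given in the sources used here), without scaling between arrays or a floor. Each array was scaled to the mean of the first DMSO array, 20 replaced lower values, and the log2 signals went into limma 3.58.1 (R 4.3.3, statmod 1.5.0) with a mean per condition. Fits ran over all probe sets above 20 on at least 3 arrays. Of 22283 probe sets, 19071 were annotated to a single symbol, 1043 to several and 2169 to none, and only the first were named. Promoter sequences are those of RefSeq (GRCh38.p14), and probe parts are those the study designed.

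All member probe sets were named. From each list the 2 largest changes among the called genes were named, and the 5 genes closest in profile. Genes that did not pass, the other called licensing genes and GINS2 were named after their values were seen. The members and lists were chosen with earlier results of these data known. The fits were tested on simulated data. Alternatives covered scaling, floor, filter, offset, a replicate block, variance model, fold minimum and each array left out. The number of arrays limits the precision. Figures used Python 3.11.15, pandas 2.3.3, numpy 2.4.6 and matplotlib 3.10.9.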

Additional observations from a re-analysis of the deposited data

How the results depend on the processing

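The 11 probe sets of MCM2 to MCM7 were called lower in every alternative in which they were tested, 14 to 18 of them each, with log2 changes between −3.01 and −1.09. Requiring more than 20 on all 6 arrays left 7 of them, and 7 member probe sets in all, since the others touch the floor. MCM10 was called in 9 of 14 alternatives, its adjusted p lying between 0.0013 and 0.587. MCMBP was called in none of 18. The 3 MCM3AP probe sets turned sign without scaling (−0.13 for 215582_x_at, −0.069 for 215581_s_at and −0.082 for 212269_s_at). With an array left out, the change of 215582_x_at lay between −0.039 and 0.20, that of 215581_s_at between −0.088 and 0.28 and that of 212269_s_at between −0.17 and 0.15.

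The count of member pairs that differed, 1, was 0 with quantile scaling, a floor of 10, an offset of 16, no filter, more than 20 on all 6 arrays, and 0 with each array left out, and 2 with a floor of 40. Those 2 were not the MCM5 pair but MCM4 222036_s_at against 212142_at (−0.69) and against 222037_at (−1.43), where the higher floor itself cuts off the falls of the dimmer probe sets. The count was also 0 with no scaling and with median scaling, 2 settings added after the data had been seen. The count over all pairs, 234, was 127 with a floor of 10, 540 with a floor of 40, 520 with no filter and 76 with more than 20 on all 6 arrays, and 17 to 118 with an array left out. Over all probe sets, a minimum of 2-fold gave 860 lower and 1012 higher, and no scaling gave 2312 lower and 1142 higher, against 1850 and 1824. Helicase activation had 4 lower with a floor of 40, 5 with no filter, 4 above 20 on all 6 arrays and 5 to 8 with an array left out. TREX-2 had 1 lower with a floor of 40, with no filter and with a minimum of 2-fold, and 1 to 2 lower and 0 to 1 higher with an array left out.

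The titles number the arrays 1 to 3 in both conditions. Same-numbered arrays did not deviate together from their condition means (r = −0.03, −0.01 and 0.07). The differently numbered tretinoin 2 and DMSO 1 also gave 0.07. Such values cannot show whether same-numbered arrays were handled together, which the labels do not say. A fit with the replicate block gave 0 member pairs, 105 pairs over the array and 1 lower TREX-2 gene, and kept all 12 member calls. The floor sets the size of the change of the dimmest probe sets: with a floor of 10 in place of 20, that of MCM10 was −1.68 against −0.72 and that of MCM5 201755_at −3.01 against −2.66.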
